A study of Mus musculus with 18 samples.

Results

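Liver transcripts of mice given asparaginase were compared between 16 weeks of age (mature adults) and 8 weeks of age (young adults). The comparison used every library of these 2 groups, 6 of the 18 in the study, and all genes with enough counts. Each library is taken as 1 liver of a C57BL/6J mouse, an inbred laboratory strain; nothing in the labels describes a mutation or transgene in any group. The 16-week asparaginase group (2 males and 1 female; replicate 3 is the female) received 7 daily intraperitoneal injections of L-asparaginase at 3 IU per g of body weight. The 8-week asparaginase group (2 males and 1 female; replicate 1 is the female) received 8 such injections at the same dose. PBS, the vehicle, was given in equal volume to 3 mice of 16 weeks (7 injections, 1 male and 2 females) and 3 mice of 8 weeks (8 injections, 1 male and 2 females). All mice were killed 7.5 h after a morning injection. Age and the number of injections change together here and cannot be told apart. The 8-week libraries also belong to another series, per the labels, and RNA of all ages was prepared and sequenced together. Polyadenylated RNA was measured, so that values are levels of messenger RNA and not of protein.

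Asparaginase is a bacterial enzyme used against leukaemia that breaks down asparagine, and to a lesser degree glutamine, in the blood. Cells that lack an amino acid activate the kinase GCN2, which slows protein synthesis and raises translation of the transcription factor ATF4, whose targets include asparagine synthetase, enzymes of serine synthesis and aminoacyl-tRNA synthetases. Liver cells also answer cytokines of inflammation with the acute phase response, in which hepatocytes secrete serum amyloid A, haptoglobin and fibrinogen, and the liver's resident macrophages, the Kupffer cells, are one source of those cytokines.

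Start-site windows are shown here for 6 genes that were higher at 16 weeks, to give the letters on which factors of these responses can act. Each is the RefSeq window from 250 bases before to 50 bases after the gene's start (GRCm38.p6), and capitals mark a match to the motif named. The first 3 carry TGATGNAA or its reverse complement, the core of the amino acid response element bound by ATF4 with C/EBP factors. They belong to Asns (chr6:7693160-7693459, - strand), Gars (chr6:55037751-55038050, + strand) and Pck2 (chr14:55540016-55540315, + strand).
Asns: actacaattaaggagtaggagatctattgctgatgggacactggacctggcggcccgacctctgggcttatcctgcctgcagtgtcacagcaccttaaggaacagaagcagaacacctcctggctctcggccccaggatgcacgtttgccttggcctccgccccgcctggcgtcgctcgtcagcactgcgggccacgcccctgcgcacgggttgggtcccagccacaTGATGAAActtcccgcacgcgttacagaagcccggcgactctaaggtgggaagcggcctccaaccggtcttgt
Gars: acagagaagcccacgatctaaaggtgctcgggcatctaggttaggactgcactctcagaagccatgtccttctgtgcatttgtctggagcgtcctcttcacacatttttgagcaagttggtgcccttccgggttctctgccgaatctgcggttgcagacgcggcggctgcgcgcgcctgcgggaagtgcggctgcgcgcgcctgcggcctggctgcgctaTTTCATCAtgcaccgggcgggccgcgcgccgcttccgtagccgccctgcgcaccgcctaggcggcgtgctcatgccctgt
Pck2: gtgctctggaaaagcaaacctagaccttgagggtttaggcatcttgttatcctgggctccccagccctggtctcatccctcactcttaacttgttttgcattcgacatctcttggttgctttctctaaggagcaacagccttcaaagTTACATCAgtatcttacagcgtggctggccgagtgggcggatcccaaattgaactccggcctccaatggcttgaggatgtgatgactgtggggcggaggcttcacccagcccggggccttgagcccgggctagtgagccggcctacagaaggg

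Marco (chr1:120504975-120505274, - strand) and Serpina3n (chr12:104406458-104406757, + strand) are shown as examples of an NF-kB motif, read as GGG, 2 bases of any kind and TTTCC, since these were among the few rises that held without any single library. Ctss (chr3:95526536-95526835, + strand) carries GAGGAAGT, a motif of PU.1, the factor that specifies macrophages.
Marco: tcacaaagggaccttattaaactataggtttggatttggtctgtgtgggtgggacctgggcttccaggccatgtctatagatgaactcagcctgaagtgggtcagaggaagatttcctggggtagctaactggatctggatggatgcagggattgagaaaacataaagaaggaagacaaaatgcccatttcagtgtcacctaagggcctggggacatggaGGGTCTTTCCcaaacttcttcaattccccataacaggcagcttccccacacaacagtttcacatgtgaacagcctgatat
Serpina3n: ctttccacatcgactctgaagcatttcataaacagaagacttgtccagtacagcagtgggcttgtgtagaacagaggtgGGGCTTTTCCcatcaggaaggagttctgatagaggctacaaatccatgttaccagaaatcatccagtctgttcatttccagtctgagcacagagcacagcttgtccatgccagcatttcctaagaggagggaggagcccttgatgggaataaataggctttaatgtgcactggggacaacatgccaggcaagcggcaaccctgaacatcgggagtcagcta
Ctss: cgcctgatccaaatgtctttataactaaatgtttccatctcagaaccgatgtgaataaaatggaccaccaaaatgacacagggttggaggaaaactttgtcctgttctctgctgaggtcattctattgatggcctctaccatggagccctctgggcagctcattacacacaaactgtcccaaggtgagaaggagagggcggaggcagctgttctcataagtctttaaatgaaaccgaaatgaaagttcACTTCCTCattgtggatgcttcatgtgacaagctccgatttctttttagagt

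Both strands were searched, and the matches shown do not overlap another motif searched. TGATGNAA was in 3.97% of all 32851 RefSeq windows of this length. Shares of genes count a match in any window of the gene. By gene, TGATGNAA was in 2.96% of 11468 genes tested, 6.57% of 198 higher at 16 weeks and 5.1% of 314 lower. The NF-kB motif was in 1.63% of all windows, and in 1.91% of genes tested, 3.03% of those higher and 3.82% of those lower. GAGGAAGT was in 3.2% of all windows, and in 3.76% of genes tested, 11.1% of those higher and 1.91% of those lower. A match describes letters and is not a site of binding.

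Total counts per library were between 24690871 and 46949361. Levels below are in CPM, counts set to a common library total after TMM scaling, and per-library values run from replicate 1 to replicate 3. Albumin and the other markers of hepatocytes summed to 83370, 81970 and 103700 CPM in mature asparaginase livers, against 100800, 85620 and 94130 CPM in young ones, so all 6 were liver by their main transcripts. The labelled sex matched Xist and the Y-linked genes in 12 of 12 adult libraries. Transcripts of other tissues stood apart in some libraries. Markers of stratified squamous epithelium, the lining of skin and oesophagus, added up to 126, 144 and 154 CPM in mature asparaginase livers, against 1261, 719.7 and 153 CPM in young ones, which sets 8-week replicates 1 and 2 (libraries 13 and 14) apart. Skeletal muscle markers came to 43.3, 53.4 and 31.6 CPM in mature asparaginase livers, against 3618, 613 and 272 CPM in young ones, with 8-week replicate 1 highest. Acinar markers of the pancreas reached 455, 14.1 and 5537 CPM in mature asparaginase livers, against 263, 10.4 and 21.4 CPM in young ones, with 16-week replicate 3 highest. The medians of these 3 lists are given below with and without those libraries.

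Of 16213 genes tested, 689 (4.25%) differed: 265 (1.63%) were higher and 424 (2.62%) were lower in 16-week than in 8-week asparaginase livers. The shares of 1.63% and 2.62% are the background for each count of list members called below. The test was edgeR's quasi-likelihood test with a sex term within each age and an adjusted p under 0.05. Rises were mostly modest, with a median log2 fold change of 0.96, and falls were large, with a median of -3.00, beside 0.02 over all genes tested. All 16-week values lay above all 8-week values in 241 of the 265 rises and below them in 360 of the 424 falls, where 9.43% and 9.95% of all genes tested were so ordered. The size of the falls followed 1 library: 8-week replicate 1 had the highest value among the 8-week livers in 398 of the 424 falls. It stood over 2-fold above both other 8-week livers in 301 of the falls (71%) but in 9 of the rises (3.4%) and in 8.62% of all genes tested. In 67 falls the 8-week livers lay within 2-fold of each other, and there the median was -0.79.

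Without 8-week replicate 1, 3 genes were called higher and 0 lower (0.0182% and 0% of 16476 genes). The 3 were Cxcl13, Serpina3n and Marco, so every other call below was lost without that liver. All 689 genes kept their sign. These genes were chosen in a fit that held the remaining libraries too. Signs and small p-values kept with libraries left out are therefore no independent check. The median was 0.89 for the 265 rises, of which 257 had an unadjusted p under 0.05 (4.39% of all genes were so much higher), and -2.44 for the 424 falls, of which 377 did (4.21% lower). Without replicates 1 and 2 of 8 weeks, 3 genes were called higher and 4 lower (0.0175% and 0.0234% of 17113 genes). The lone 8-week liver left is assumed there to vary like the other groups. The sign held for 686 of the 689 genes, with medians of 0.88 and -1.81. Leaving out a 16-week asparaginase liver also lowered the counts, to 111 higher and 87 lower without replicate 1, 93 and 170 without replicate 2, and 93 and 17 without replicate 3. Without 8-week replicate 2 the counts were 121 and 201, and without 8-week replicate 3 they were 292 and 608. With no sex term they were 130 and 242, and with these 6 libraries fitted alone, with 1 sex term, 19 and 22.

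**Figure D1:**
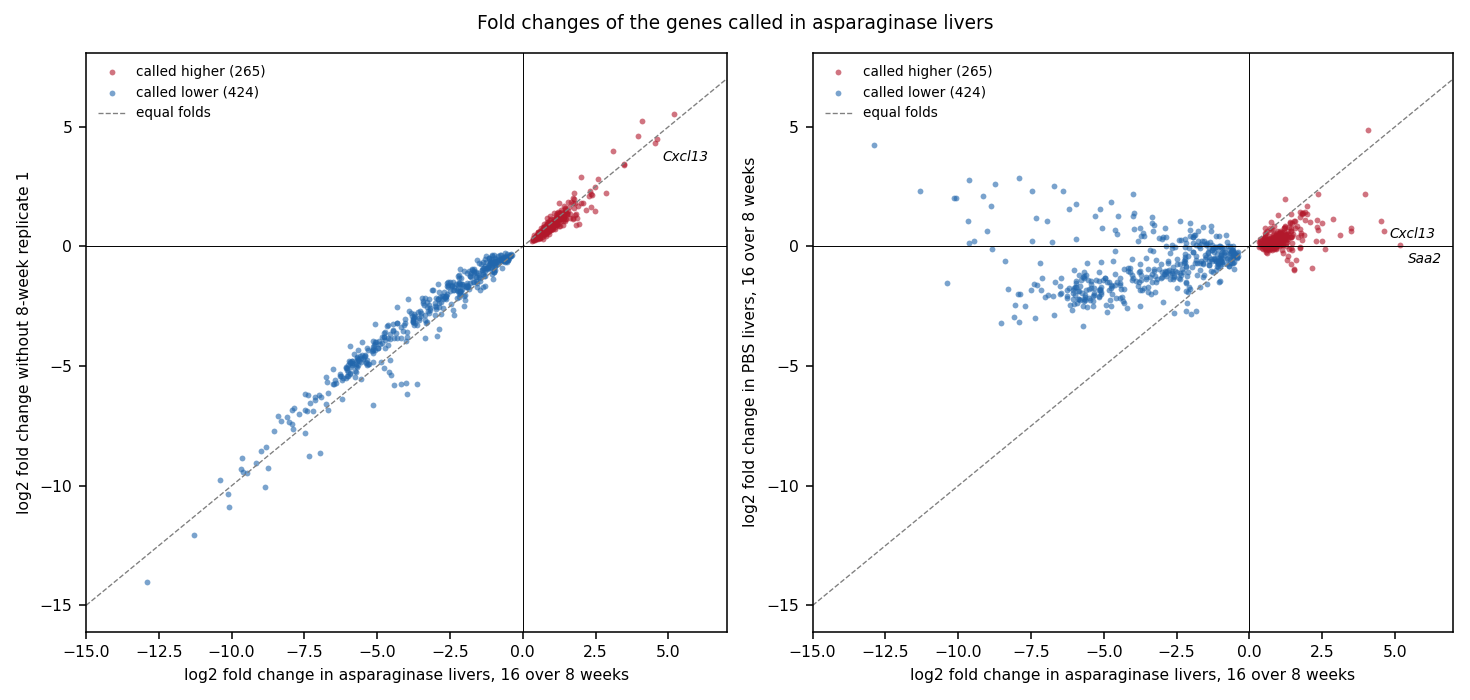
Log2 fold changes, 16 over 8 weeks, of the 689 called genes: asparaginase livers (x axes) against the same without 8-week replicate 1 (left, y axis) and against PBS livers (right, y axis); each point is a gene. On the left the falls lie above the line of equality for the most part, with medians of -3.00 (x) and -2.44 (y), and the rises lie near it, with 0.96 and 0.89.

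Among genes of the response to amino acid loss, Asns and enzymes of serine synthesis were higher in the mature livers. Psat1 and Phgdh make serine, and Asns, asparagine synthetase (chr6:7675169-7693254, - strand), makes asparagine. Psat1 stood at 19.1, 17.6 and 20.6 CPM in the 16-week asparaginase livers, against 2.63, 6.52 and 5.65 CPM in the 8-week asparaginase livers. Every 16-week liver was above every 8-week liver, at a log2 fold change of 2.16 (SE 0.29, adjusted p = 0.00405). In PBS livers Psat1 was at or under 1.10 CPM at both ages. Asns had 28.0, 27.8 and 13.1 CPM in the 16-week asparaginase livers, against 4.15, 7.95 and 14.2 CPM in the 8-week asparaginase livers. The female 16-week liver lay just under 8-week replicate 3, so the groups overlapped, and the fitted difference, which allows for sex, was a log2 fold change of 1.54 (SE 0.21, adjusted p = 0.00588). Phgdh, the first enzyme of serine synthesis, had 4.61, 6.83 and 2.85 CPM at 16 weeks and 1.59, 0.598 and 0.339 CPM at 8 weeks, without overlap, at a log2 fold change of 2.31 (SE 0.34, adjusted p = 0.00942). The last enzyme of that path, Psph, had 8.69, 8.20 and 6.26 CPM at 16 weeks and 2.86, 4.62 and 4.46 CPM at 8 weeks, again without overlap, at a log2 fold change of 0.91 (SE 0.20, adjusted p = 0.0242), and at 0.52 without 8-week replicate 1. Mthfd2, a mitochondrial enzyme of one-carbon metabolism, had 8.26, 8.92 and 6.86 CPM at 16 weeks and 2.21, 4.93 and 3.16 CPM at 8 weeks, with all 16-week livers above all 8-week livers, at a log2 fold change of 1.32 (SE 0.29, adjusted p = 0.0275).

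Pck2, the mitochondrial form of a gluconeogenic enzyme and an ATF4 target, had 9.56, 9.84 and 10.9 CPM at 16 weeks and 6.88, 5.36 and 5.79 CPM at 8 weeks. These did not overlap, at a log2 fold change of 0.73 (SE 0.13, adjusted p = 0.0143). Its start-site window, and those of Asns and Gars, are among the sequences above. Gars, which charges tRNA with glycine, had 56.5, 54.7 and 53.9 CPM at 16 weeks and 31.1, 42.5 and 38.4 CPM at 8 weeks, without overlap, at a log2 fold change of 0.60 (SE 0.12, adjusted p = 0.0165). The asparagine enzyme Nars changed by 0.56 (SE 0.13, adjusted p = 0.0304) and the methionine enzyme Mars by 0.58 (SE 0.14, adjusted p = 0.0329), or by 0.37 and 0.34 without 8-week replicate 1. Exons of Mars overlap those of Ddit3, and use of strand in counting is not stated, so reads of that pair may be mixed. The aminoacyl-tRNA synthetases, which load amino acids onto tRNA, had 3 of 20 members higher and 0 lower, with a median of 0.319 (0.107 without 8-week replicate 1).

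ATF4 and CHOP targets as a list had 8 of 41 tested members higher and 1 lower, where 1.63% and 2.62% of all genes were. The median log2 fold change of these targets was 0.339 beside 0.0175 over all genes. That median was 0.168 without 8-week replicate 1. The 1 that fell was Vldlr, a lipoprotein receptor that is higher in female liver, at -2.17 (SE 0.42, adjusted p = 0.0174). Serine, glycine and one-carbon enzymes had 4 of 33 higher and 0 lower, with a median of -0.034, so the rises of Psat1, Phgdh, Psph and Mthfd2 were not shared by the list. Amino acid transporters had 2 of 28 higher, Slc7a8 at 0.85 and Slc7a7 at 0.90, which carry neutral and cationic amino acids. The arginine and lysine transporter Slc7a2 fell, with 307, 356 and 323 CPM at 16 weeks and 881, 582 and 590.0 CPM at 8 weeks, at -1.04 (SE 0.26, adjusted p = 0.042), and at -0.34 without 8-week replicate 1.

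The regulators of this response gave no call. Of 18 integrated stress response regulators 0 were higher and 0 lower, and the median was 0.006; 3 had an unadjusted p under 0.05, and DESeq2 and limma-voom called 0. Atf4 had 55.2, 61.0 and 46.3 CPM in the 16-week asparaginase livers, against 56.1, 87.5 and 82.5 CPM in the 8-week asparaginase livers, which overlapped, at a log2 fold change of -0.43 (SE 0.15, adjusted p = 0.153). Trib3, a pseudokinase induced by ATF4, had 20.6, 11.2 and 38.1 CPM at 16 weeks and 27.3, 29.5 and 27.0 CPM at 8 weeks. The 16-week livers lay on both sides of the 8-week livers, at a log2 fold change of -0.23 (SE 0.37, adjusted p = 0.827). Ddit3, which encodes CHOP, had a log2 fold change of -0.11 (SE 0.29, adjusted p = 0.915). Atf5, a related stress factor, had 0.75 (SE 0.33, adjusted p = 0.258), and Sesn2, a sestrin that signals low amino acids, had 0.32 (SE 0.22, adjusted p = 0.53). For Ppp1r15a, the phosphatase subunit that restores translation, the value was 0.11 (SE 0.20, adjusted p = 0.868). Fgf21, a stress hormone of liver, had 24.7, 6.65 and 7.86 CPM at 16 weeks and 2.19, 19.9 and 28.8 CPM at 8 weeks, a wide spread within each age, at a log2 fold change of 0.52 (SE 0.67, adjusted p = 0.779). The hormone gene Gdf15 had a log2 fold change of -0.28 (SE 0.52, adjusted p = 0.862). Atf5, Ppp1r15a and Fgf21 had the opposite sign without replicates 1 and 2 of 8 weeks, at -0.01, -0.21 and -0.40, and Sesn2 and Gdf15 without 16-week replicate 3, at -0.20 and 0.34. A missed threshold does not show equal levels in the 2 ages.

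**Figure D2:**
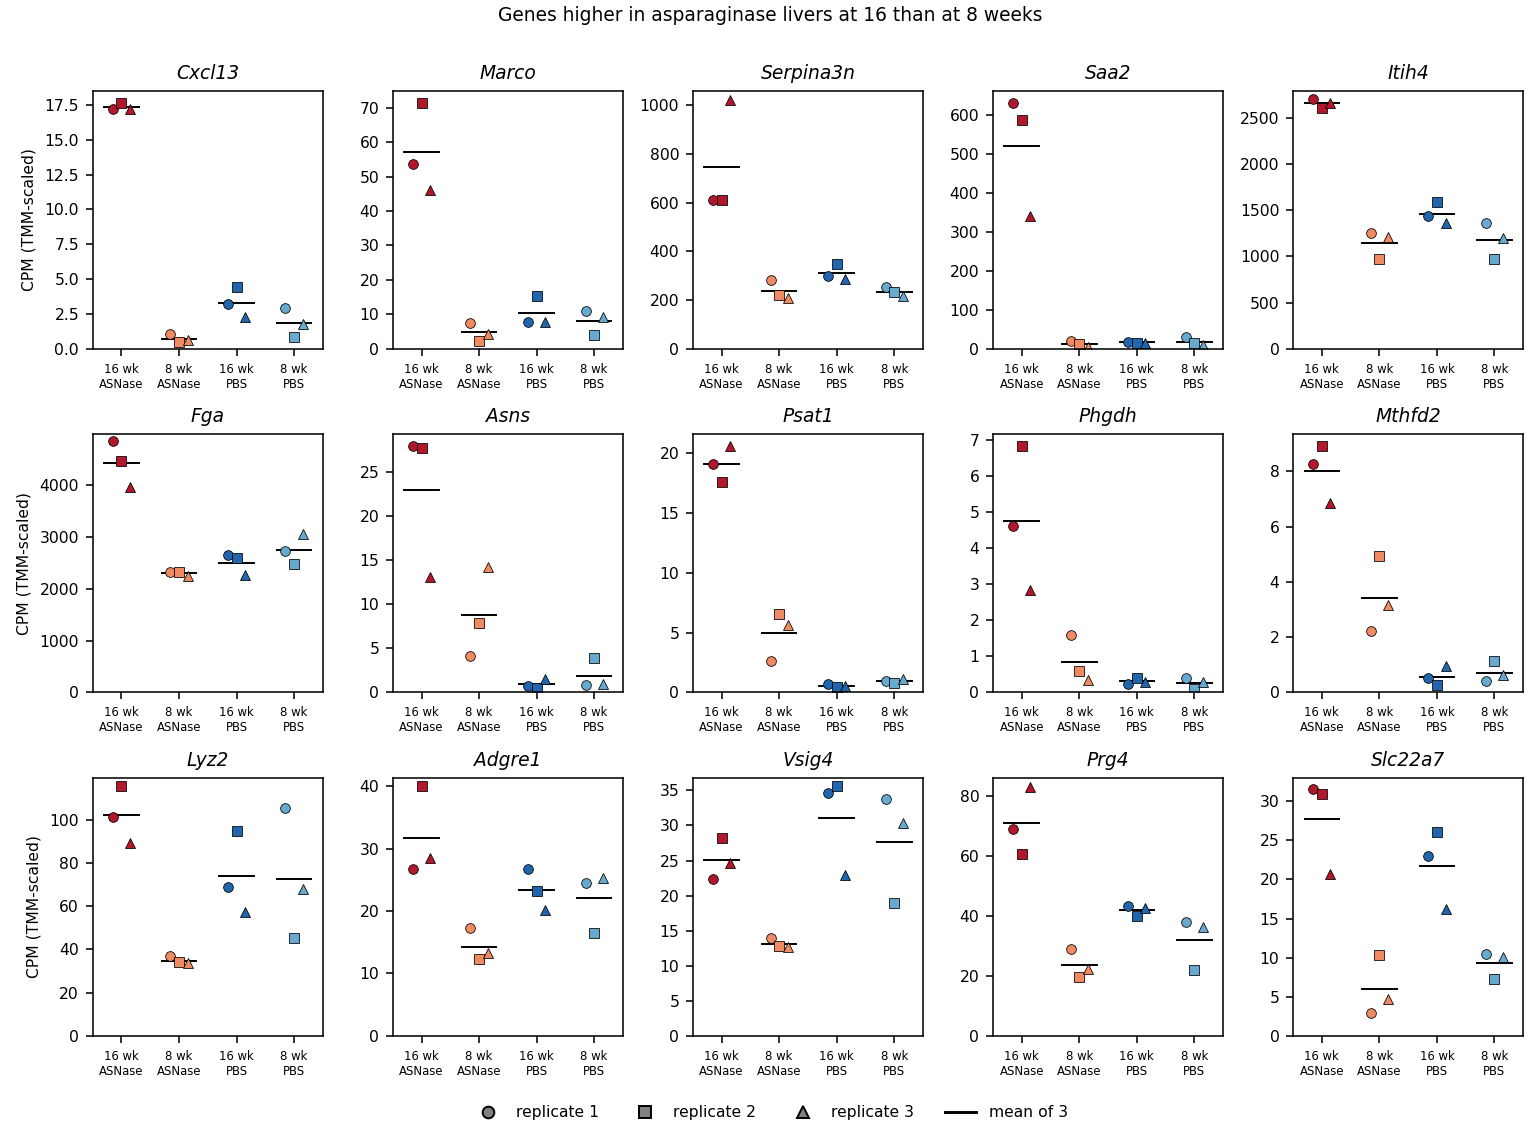
CPM per library (y axes, linear) of 15 genes that rose in the 16-week against the 8-week asparaginase livers, with PBS livers beside them; points are livers, shapes are replicates and lines are means. Cxcl13 stands at 17.2 to 17.7 CPM in the 3 mature asparaginase livers and at or under 1.06 CPM in the 3 young ones.

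Acute phase genes were the list with the most rises. Of 32 acute phase genes tested, 15 were higher at 16 weeks and 0 lower, and 20 had all 16-week livers above all 8-week livers (9.43% of all genes tested). Their median log2 fold change was 0.922, beside 0.0175 over all genes, and 0.776 without 8-week replicate 1, where 17 of the 32 had an unadjusted p under 0.05 and a rise. Summed, the list stood at 46280, 42900 and 35600 CPM in mature asparaginase livers, against 24400, 26120 and 25070 CPM in young ones, with no overlap. In PBS livers the sums were 33860, 33320 and 30750 CPM in the 16-week PBS livers and 29020, 27760 and 27810 CPM in the 8-week PBS livers, also with no overlap.

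Serpina3n, a secreted protease inhibitor (chr12:104406729-104414329, + strand), had 609, 611 and 1018 CPM in the 16-week asparaginase livers, against 284, 220.5 and 207 CPM in the 8-week asparaginase livers. Each mature liver was at least 2-fold above each young one, at a log2 fold change of 1.66 (SE 0.15, adjusted p = 0.000507), and the call held whichever library was left out. PBS livers had 298, 349.9 and 289 CPM in the 16-week PBS livers and 254, 232 and 218 CPM in the 8-week PBS livers, and the age difference there was 0.37 (SE 0.15, adjusted p = 0.252). Serum amyloid A, the acute phase apolipoprotein, changed most in size: Saa2 (chr7:46751790-46754313, + strand) had 630.5, 586 and 340.4 CPM in the 16-week asparaginase livers, against 19.7, 13.6 and 5.79 CPM in the 8-week asparaginase livers. Saa1 had 761, 734 and 358 CPM at 16 weeks and 20.1, 37.9 and 9.97 CPM at 8 weeks. Both were far above in every mature asparaginase liver. The log2 fold changes were 5.18 (SE 1.27, adjusted p = 0.0392) for Saa2 and 4.62 (SE 1.18, adjusted p = 0.0455) for Saa1, with wide errors, and the calls held in 4 and 5 of 18 fits that each left out 1 library. PBS livers of both ages had at most 38.6 CPM of either gene. Saa1 and Saa2 are near-identical copies, so the split of reads between them is uncertain.

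Lcn2, a siderophore-binding protein that starves bacteria of iron, had 31.9, 43.0 and 44.3 CPM in the 16-week asparaginase livers, against 12.2, 2.31 and 2.85 CPM in the 8-week asparaginase livers. The 8-week replicate 1 was highest of the young livers but below all mature ones, at a log2 fold change of 3.11 (SE 0.62, adjusted p = 0.0181). Lrg1, a secreted glycoprotein, had 431, 376 and 379.5 CPM at 16 weeks and 51.3, 112 and 88.4 CPM at 8 weeks, without overlap, at a log2 fold change of 2.36 (SE 0.39, adjusted p = 0.0125). Haptoglobin (Hp), which binds free haemoglobin, had 2615, 2621 and 1823 CPM at 16 weeks and 1143, 908 and 959 CPM at 8 weeks, without overlap, at a log2 fold change of 1.13 (SE 0.15, adjusted p = 0.00389). Itih4 and Itih3, heavy chains of inter-alpha-trypsin inhibitor, rose by 1.18 and 0.98. The liver-secreted Fgl1 rose by 1.43, and Steap4, a metalloreductase, by 1.04. Hemopexin (Hpx), the haem-binding plasma protein, had 5091, 5258 and 3286 CPM at 16 weeks and 2059, 2155 and 2599 CPM at 8 weeks, with the female mature liver lowest of its group yet above the young livers, at a log2 fold change of 0.93 (SE 0.21, adjusted p = 0.0304).

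The 3 fibrinogen chains rose together. Fga had 4858, 4459 and 3958 CPM in the 16-week asparaginase livers, against 2332, 2320 and 2257 CPM in the 8-week asparaginase livers. None of the young livers reached the mature ones, at a log2 fold change of 0.92 (SE 0.18, adjusted p = 0.0169). Fgb had 0.77 (SE 0.16, adjusted p = 0.0224) and Fgg had 0.75 (SE 0.18, adjusted p = 0.033). Among 32 genes of coagulation and fibrinolysis these were the 3 that rose, with 0 lower and a list median of 0.105. Complement had 5 of 32 members higher and 0 lower, with a median of 0.427. The members that rose were C1qa (0.74) and C1qb (0.80), which macrophages make, Cfp (0.74), the properdin of the alternative pathway, C6 (0.91), and C4a (0.73). The 16-week female liver had 122 CPM of C4a and 15.7 CPM of C6, within the range of the young livers, so those 2 overlapped; both are known to be higher in male liver.

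Iron genes split. Of 27 tested, 2 rose and 1 fell, beside 1.63% and 2.62% of all genes. Tfrc, the transferrin receptor that takes up iron, had 9.11, 9.90 and 8.71 CPM in the 16-week asparaginase livers, against 19.1, 21.7 and 31.6 CPM in the 8-week asparaginase livers. Mature asparaginase livers were all below young ones, at a log2 fold change of -1.29 (SE 0.26, adjusted p = 0.0185), while PBS livers had 25.3, 32.6 and 29.9 CPM in the 16-week PBS livers and 23.9, 41.0 and 30.3 CPM in the 8-week PBS livers. Without 8-week replicate 1 the log2 fold change of Tfrc was -1.23.

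Some transcripts of macrophages were also higher at 16 weeks. Of 28 markers of Kupffer cells and macrophages tested, 10 were higher and 0 lower, and 24 had all mature livers above all young ones (9.43% of all genes tested). Their median was 0.731, and 0.61 without 8-week replicate 1. The markers summed to 879.5, 1155 and 919 CPM in mature asparaginase livers, against 635, 546 and 526 CPM in young ones. PBS livers had 969, 1007 and 733 CPM in the 16-week PBS livers and 983, 623 and 883 CPM in the 8-week PBS livers, which overlapped, so the mature asparaginase livers lay near the PBS range and the young ones at or below it. In bulk liver, more cells of a type and more RNA per cell cannot be told apart.

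Cxcl13, a chemokine that draws B cells (chr5:95956951-95961068, + strand), had 17.2, 17.7 and 17.2 CPM in the 16-week asparaginase livers, against 1.06, 0.484 and 0.621 CPM in the 8-week asparaginase livers. The mature livers stood close to each other and every young one was far below, at a log2 fold change of 4.53 (SE 0.29, adjusted p = 2.09e-05), the smallest p among the rises. Marco, a scavenger receptor of macrophages (chr1:120474538-120505024, - strand), had 53.7, 71.5 and 46.0 CPM in the 16-week asparaginase livers, against 7.66, 2.42 and 4.41 CPM in the 8-week asparaginase livers. Again no values overlapped, at a log2 fold change of 3.48 (SE 0.33, adjusted p = 0.000651). These 2 calls, like that of Serpina3n, held whichever single library was left out. Adgre1, which encodes the macrophage marker F4/80, had 26.7, 40.0 and 28.5 CPM at 16 weeks and 17.3, 12.3 and 13.3 CPM at 8 weeks, at a log2 fold change of 1.09 (SE 0.19, adjusted p = 0.013). Lyz2, lysozyme of myeloid cells, had 101, 115 and 89.3 CPM at 16 weeks and 36.9, 34.0 and 33.5 CPM at 8 weeks, at a log2 fold change of 1.48 (SE 0.22, adjusted p = 0.00981). Neither gene overlapped between the ages.

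Resident Kupffer cell markers rose with these: Vsig4, a complement receptor, by 0.91, Timd4, a receptor for dying cells, by 1.27, and Cd5l, a secreted macrophage protein, by 1.05. Csf1r, the receptor that sustains macrophages, rose by 0.72. Clec4f, a lectin specific to Kupffer cells in mice, had 75.5, 99.5 and 83.9 CPM at 16 weeks and 62.0, 64.2 and 55.2 CPM at 8 weeks, without overlap, but missed the threshold at 0.48 (SE 0.18, adjusted p = 0.182). Ctss, a lysosomal protease of antigen presentation whose window is printed above, had 26.8, 39.0 and 28.4 CPM at 16 weeks and 21.6, 16.8 and 16.8 CPM at 8 weeks, at a log2 fold change of 0.73 (SE 0.19, adjusted p = 0.0482). Cd207, a lectin of Langerhans and other dendritic cells, had 6.12, 7.91 and 6.93 CPM at 16 weeks and 1.75, 1.99 and 2.57 CPM at 8 weeks, without overlap, at a log2 fold change of 1.77 (SE 0.22, adjusted p = 0.00332). Itgal, an integrin subunit of leukocytes, rose by 1.16, and Wfdc17, a small secreted protein, by 1.39.

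Cytokine genes moved less as a list, and 1.63% of all genes tested were called higher. Of 25 NF-kB, cytokine and chemokine genes 3 rose, Cxcl13 among them, and 0 fell. Il1b, an early cytokine of inflammation, had 2.43, 2.86 and 2.78 CPM at 16 weeks and 1.75, 0.541 and 0.706 CPM at 8 weeks, without overlap, at a log2 fold change of 1.44 (SE 0.30, adjusted p = 0.0218). The chemokine Ccl6 rose by 1.11. Interferon-stimulated genes had 2 of 43 higher, the guanylate-binding proteins Gbp8 (0.94) and Gbp4 (0.66), and MHC genes 2 of 24, H2-Q6 (0.84) and H2-Q7 (0.88, or 0.58 without 8-week replicate 1). Both pairs are near-copies whose reads the counting could split. T cell and NK cell markers had 3 of 23 higher, among low counts: Trbc2, a T cell receptor constant segment, had 0.527, 0.448 and 1.74 CPM at 16 weeks and 0.254, 0.342 and 0.282 CPM at 8 weeks, at a log2 fold change of 1.61 (SE 0.32, adjusted p = 0.0178). Cd4 (1.73) and the T cell signalling chain Cd247 (2.60) were the others. B cell markers gave 0 calls higher and 0 lower in 14, with 5 higher at an unadjusted p under 0.05 and 2 called higher by DESeq2. Jchain, which joins antibody subunits, had 1.27, 5.85 and 8.08 CPM at 16 weeks and 1.18, 0.883 and 0.537 CPM at 8 weeks, at a log2 fold change of 2.55 (SE 0.67, adjusted p = 0.0508). Neutrophil markers gave 1 rise, the chemokine receptor Cxcr2 (1.76), and 1 fall in 11. Prtn3, a protease of neutrophil granules, is not on that list. It had 2.57, 2.48 and 0.445 CPM at 16 weeks and 0.138, 0.0570 and 0.0282 CPM at 8 weeks, with the female mature liver lowest of its group, at a log2 fold change of 3.96 (SE 0.94, adjusted p = 0.034).

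Some genes that burn, make or store fat were lower in the mature livers. Of 50 genes of fatty acid oxidation and targets of PPARA, the nuclear receptor of the fasted liver, 0 rose and 9 fell. All 16-week livers were below all 8-week livers in 18 (9.95% of all genes tested). The median was -0.301, and -0.169 without 8-week replicate 1. Ehhadh, the bifunctional enzyme of peroxisomal oxidation, had 142, 128 and 215 CPM in the 16-week asparaginase livers, against 488, 284 and 416 CPM in the 8-week asparaginase livers. All mature livers were below all young ones, and the young livers were within 2-fold of each other, at a log2 fold change of -1.32 (SE 0.20, adjusted p = 0.0098). Cyp4a31, a fatty acid hydroxylase, had 9.78, 8.32 and 24.8 CPM at 16 weeks and 96.4, 28.9 and 56.7 CPM at 8 weeks, without overlap, at a log2 fold change of -2.09 (SE 0.26, adjusted p = 0.00306). Its neighbours Cyp4a10, Cyp4a14 and Cyp4a32 fell too, with log2 fold changes of -2.11, -2.18 and -1.60. These Cyp4a genes are close copies, and the split of reads among them is uncertain.

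Fatty acid synthesis and lipid storage had 0 of 38 higher and 6 lower. Scd2, a desaturase, had 17.3, 18.8 and 19.1 CPM in the 16-week asparaginase livers, against 70.0, 49.0 and 58.0 CPM in the 8-week asparaginase livers. The mature livers were tightly grouped well below the young ones, at a log2 fold change of -1.70 (SE 0.20, adjusted p = 0.00177). Elovl5 and Elovl2, which lengthen polyunsaturated fatty acids, had log2 fold changes of -1.04 (SE 0.21, adjusted p = 0.0189) and -0.64 (SE 0.14, adjusted p = 0.0279), and their partner desaturase Fads2 had -0.86 (SE 0.17, adjusted p = 0.0184). Plin4, a coat protein of lipid droplets, had 6.96, 6.14 and 7.45 CPM at 16 weeks and 27.7, 16.8 and 27.9 CPM at 8 weeks, without overlap, at a log2 fold change of -1.82 (SE 0.42, adjusted p = 0.0321). Cidea, which enlarges lipid droplets, had 2 counts over all mature livers and 39 over all young ones, a ratio of 8-week to 16-week levels of 15.2 (95% exact counting interval 3.94 to 130.2).

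Some lipid genes are shared with muscle and fat, whose markers were highest in 8-week replicate 1. Adipocyte markers summed to 88.7, 71.2 and 120.5 CPM in mature asparaginase livers, against 443, 152 and 188 CPM in young ones. All 16-week sums were below all 8-week sums, 5 of 13 markers fell and the median was -1.49 (-1.25 without 8-week replicate 1). Lpl, lipoprotein lipase, had 14.3, 19.4 and 12.5 CPM at 16 weeks and 160.4, 33.2 and 35.2 CPM at 8 weeks, with 8-week replicate 1 far above the rest, at a log2 fold change of -2.18 (SE 0.39, adjusted p = 0.014) and -1.33 without it. Cd36, a fatty acid transporter, had 50.1, 34.3 and 83.2 CPM at 16 weeks and 192, 81.8 and 105 CPM at 8 weeks, which overlapped at the female mature liver, at a log2 fold change of -1.15 (SE 0.19, adjusted p = 0.0125). Pdk4, a kinase that spares glucose in fasting, had 3.27, 3.04 and 4.52 CPM at 16 weeks and 68.2, 9.03 and 6.24 CPM at 8 weeks, at a log2 fold change of -2.59 (SE 0.59, adjusted p = 0.0306) and -1.53 without 8-week replicate 1. The fatty acid binder Fabp4 had a log2 fold change of -1.50, and of -1.19 without that liver. The part of muscle and fat transcripts in these falls was not tested.

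Enzymes that break down amino acids fell in part. The urea cycle and amino acid breakdown list had 0 of 42 higher and 4 lower. In 19 all mature livers were below all young ones (9.95% of all genes tested). The median was -0.267 (-0.172 without 8-week replicate 1). Ass1, the urea cycle enzyme that joins citrulline to aspartate, had 1527, 1554 and 1858 CPM in the 16-week asparaginase livers, against 3525, 2697 and 3312 CPM in the 8-week asparaginase livers. The values did not overlap, and those of each age lay within 2-fold, at a log2 fold change of -0.94 (SE 0.20, adjusted p = 0.0242). Got1, which moves amino groups between aspartate and glutamate, had 76.8, 81.1 and 124 CPM at 16 weeks and 172, 215 and 261 CPM at 8 weeks, at a log2 fold change of -1.07 (SE 0.25, adjusted p = 0.034). Gls2, liver glutaminase, had a log2 fold change of -0.94, and Acmsd, of tryptophan breakdown, one of -1.13; these were -0.53 and -0.70 without 8-week replicate 1. Ppargc1a, a coactivator of mitochondrial and gluconeogenic genes, had 3.62, 4.24 and 4.63 CPM at 16 weeks and 13.4, 7.12 and 11.1 CPM at 8 weeks, without overlap, at a log2 fold change of -1.29 (SE 0.25, adjusted p = 0.0178). The list of gluconeogenesis and glycolysis genes had 1 of 33 higher and 2 lower. The rise was Txnip, an inhibitor of thioredoxin that answers glucose, at 1.20 (SE 0.30, adjusted p = 0.0406). Pck2, described above as higher, was not on that list.

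Of 60 nuclear genes of the respiratory chain, 53 had every 16-week liver below every 8-week liver (9.95% of all genes tested). Their median was -0.289, and the PBS median of this list was -0.297. Only Sdhd, a subunit of succinate dehydrogenase, passed the threshold, with 112, 112 and 123 CPM at 16 weeks and 158, 153 and 162 CPM at 8 weeks. Its log2 fold change was -0.44 (SE 0.11, adjusted p = 0.0391). All 13 mitochondrially encoded genes were likewise lower in each mature liver, with a median of -0.426, and edgeR called 0 of them, with 11 at an unadjusted p under 0.05, while DESeq2 called 10 lower and limma-voom 2. The whole list summed to 56510, 60290 and 59200 CPM in mature asparaginase livers, against 88320, 74090 and 75460 CPM in young ones. Its PBS median was -0.135.

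Bile acid genes had 3 of 34 lower, Akr1d1, a steroid reductase of bile acid synthesis (-0.66), and the transporters Abcc4 (-0.77) and Slco1a4 (-0.99). Xenobiotic cytochromes P450 had 1 of 49 lower, Cyp3a59 (-1.06), and conjugating enzymes 1 of 51, the glutathione transferase Gsta1 (-2.60), with 0 higher in these 3 lists. As 2.62% of all genes tested were called lower, 1 of 49 and 1 of 51 lie near that share. Of 20 periportal genes 1 rose and 4 fell, among them Etnppl, a phospholyase (-1.25), and Aldh1b1, a mitochondrial aldehyde dehydrogenase (-1.16). Smaller log2 fold changes were found without 8-week replicate 1 for Etnppl (-0.41), Aldh1b1 (-0.49), Abcc4 (-0.35) and Gsta1 (-1.65). Pericentral genes gave 0 calls among 23, with 2 rises and 2 falls at an unadjusted p under 0.05, and DESeq2 called 2 lower. Among p53 targets 2 of 24 fell. Phlda3, a repressor of AKT signalling, had 0.668, 0.597 and 0.667 CPM at 16 weeks and 6.69, 1.77 and 1.02 CPM at 8 weeks, without overlap, at a log2 fold change of -2.17 (SE 0.25, adjusted p = 0.00177). Ccng1, cyclin G1, had a log2 fold change of -0.62, and of -0.29 without 8-week replicate 1. Bhlhe41, a repressor of the clock, had 4.57, 3.37 and 1.45 CPM at 16 weeks and 5.98, 7.07 and 7.06 CPM at 8 weeks, at a log2 fold change of -1.33 (SE 0.27, adjusted p = 0.0206); PBS livers had 2.91, 4.03 and 7.42 CPM in the 16-week PBS livers and 2.33, 4.60 and 1.62 CPM in the 8-week PBS livers, and the age difference there was 0.84 (SE 0.27, adjusted p = 0.167).

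**Figure D3:**
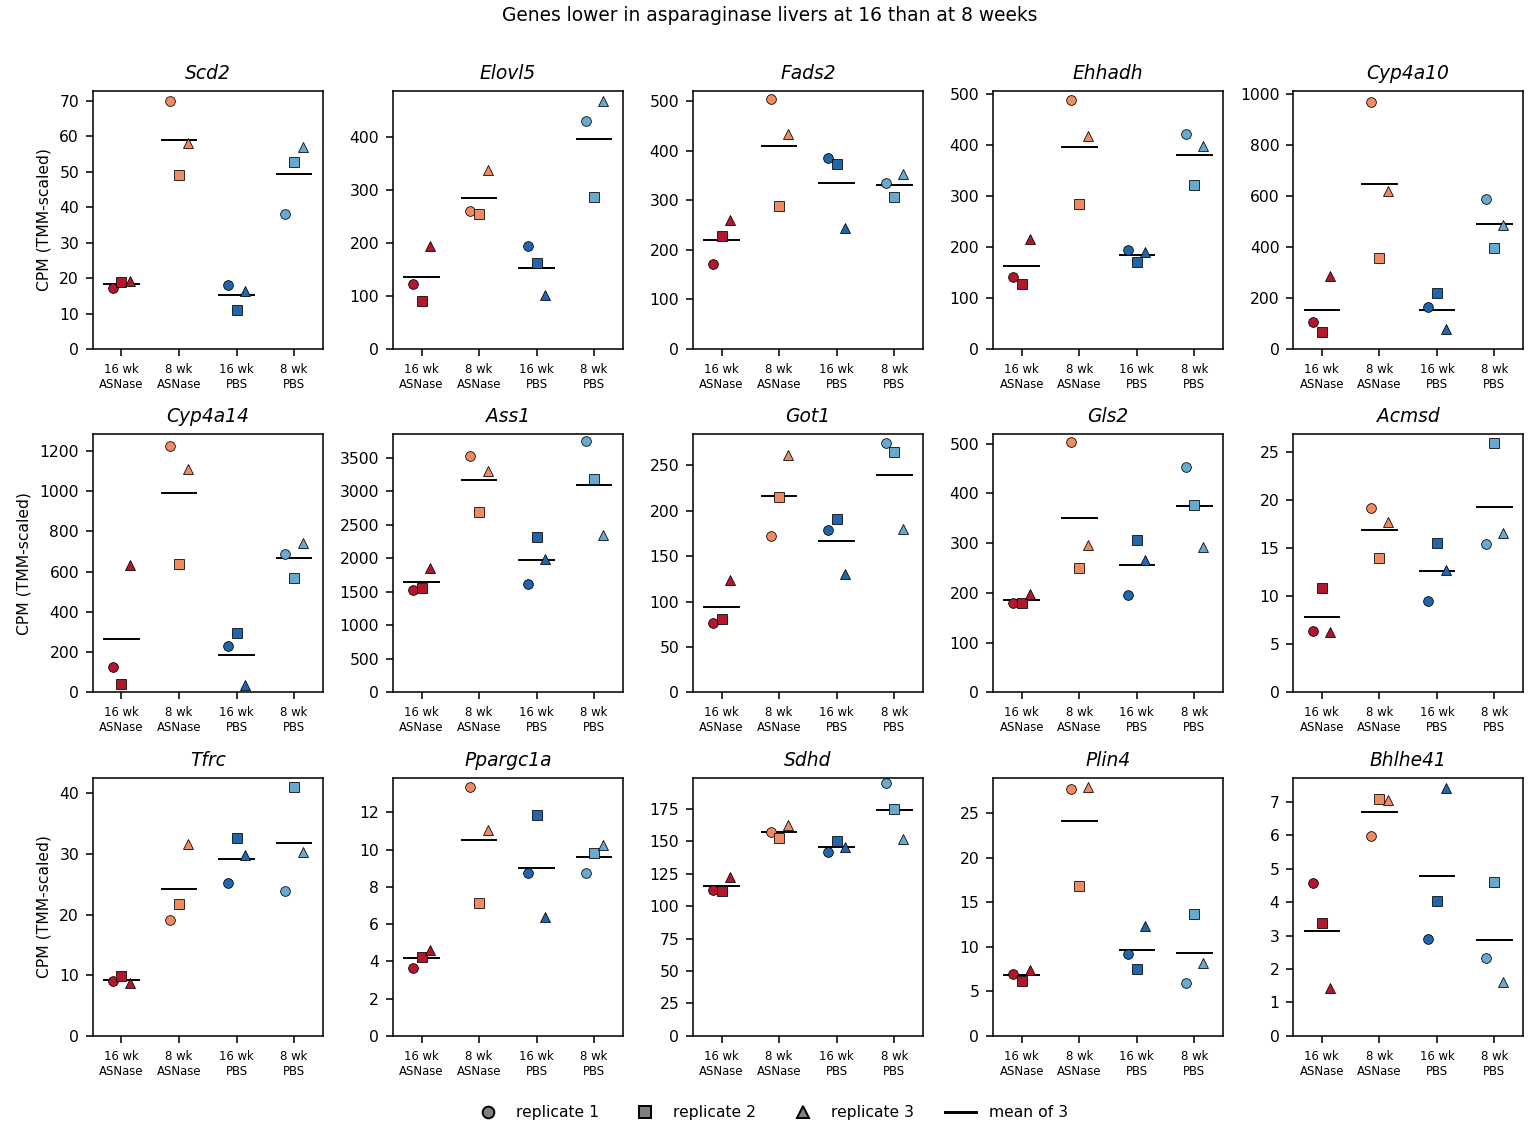
CPM per library (y axes, linear) of 15 genes that fell in the 16-week against the 8-week asparaginase livers, with PBS livers beside them; points are livers, shapes are replicates and lines are means. Scd2 stands at 17.3 to 19.1 CPM in the mature asparaginase livers and at 49.0 to 70.0 CPM in the young ones.

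Sex-biased genes need care, since the single female was replicate 3 of the mature group and replicate 1 of the young group. Female-biased genes had 0 of 31 higher and 6 lower, with a median of -0.798, and male-biased genes 1 of 25 higher and 0 lower, with a median of 0.513. Abcd2, a peroxisomal fatty acid transporter that is higher in females, had 8.26, 7.40 and 57.2 CPM in the 16-week asparaginase livers, against 93.0, 23.8 and 55.8 CPM in the 8-week asparaginase livers. The females were highest at each age, and the fitted difference was a log2 fold change of -1.55 (SE 0.27, adjusted p = 0.013). Nipal1, a magnesium transporter, had -2.02 (SE 0.37, adjusted p = 0.015). Cyp2b9, a female P450, had 0.176, 0.567 and 434 CPM at 16 weeks and 382, 1.11 and 13.6 CPM at 8 weeks, at a log2 fold change of -2.30 (SE 0.82, adjusted p = 0.149) with all libraries and -4.64 without 8-week replicates 1 and 2. Major urinary proteins, pheromone carriers made mostly by male liver, summed to 502500, 644400 and 125600 CPM in mature asparaginase livers, against 44310, 464500 and 248200 CPM in young ones. Their range was wide within each age, and 0 of 20 were called higher and 0 lower, with 1 fall at an unadjusted p under 0.05 and 0 calls by DESeq2. These genes are near-copies and their split is uncertain.

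Acnat2, an acyltransferase of peroxisomes, was called higher at 1.16 (SE 0.13, adjusted p = 0.00177) but had 10.9, 15.1 and 71.0 CPM at 16 weeks and 13.4, 12.7 and 12.8 CPM at 8 weeks. One mature liver, the female, was high, and the other 2 lay within or near the young range, so this call rests on the sex term. Slc22a7, an organic anion transporter, had 31.6, 31.0 and 20.7 CPM at 16 weeks and 2.88, 10.4 and 4.75 CPM at 8 weeks, without overlap, at a log2 fold change of 2.34 (SE 0.42, adjusted p = 0.0141). Slc13a5, the citrate transporter of liver, had 2.00, 1.91 and 2.82 CPM at 16 weeks and 0.300, 0.228 and 0.367 CPM at 8 weeks, at a log2 fold change of 2.88 (SE 0.62, adjusted p = 0.0244). Prg4, lubricin, had 68.9, 60.8 and 83.0 CPM at 16 weeks and 29.1, 19.7 and 22.4 CPM at 8 weeks, without overlap, at a log2 fold change of 1.51 (SE 0.17, adjusted p = 0.00177).

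Squamous and muscle transcripts made up the steepest falls named. Of 38 squamous epithelium markers tested, 13 fell, 0 rose, and the median was -6.7; DESeq2 called 30 of them lower and limma-voom 2. Krt13, a keratin of oesophagus and tongue, had 0, 0.0298 and 0 CPM in the 16-week asparaginase livers, against 393, 209 and 4.21 CPM in the 8-week asparaginase livers. Young replicates 1 and 2 were far above young replicate 3, and the mature livers held 1 count in all. Its adjusted p was 0.0545, so it was not called. Krt4, its partner keratin, had 0.105, 0 and 0.0371 CPM at 16 weeks and 305, 164 and 3.67 CPM at 8 weeks, and Krt5, of basal layers, had 0, 0 and 0 CPM at 16 weeks and 20.6, 12.4 and 0.198 CPM at 8 weeks. Lor, loricrin of the cornified layer, had 0.141, 0.358 and 0.222 CPM at 16 weeks and 49.5, 19.3 and 0.904 CPM at 8 weeks, and Evpl, envoplakin, had 0.246, 0.269 and 0.593 CPM at 16 weeks and 10.7, 4.81 and 0.480 CPM at 8 weeks. For Evpl the third young liver lay inside the mature range. The desmosomal cadherin Dsg1a had a log2 fold change of -3.11, which was -1.82 without 8-week replicate 1 and -0.54 without replicates 1 and 2.

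Several of these had 0 counts in the mature livers, and their folds are bounds set by a floor of 3 counts over the group. Hrnr, hornerin of the cornified layer, had 0 and 3882 counts over the 3 livers of 16 and 8 weeks and was at least 1011-fold lower at 16 weeks. Serpinb3a, a squamous serpin, was at least 283-fold lower, Kprp at least 107-fold, Scel at least 85.4-fold and Trim29 at least 84.9-fold. Tgm3, the transglutaminase of the epidermis, had 1 count at 16 weeks against 1564 at 8 weeks, a ratio of 8-week to 16-week levels of 1222 (95% exact counting interval 219 to 48290). PBS libraries summed to 149, 193 and 134 CPM in the 16-week PBS livers and 159, 127 and 159.7 CPM in the 8-week PBS livers over the whole squamous list. The sum of the third young asparaginase liver, 153 CPM, stood within the PBS range. That sum does not show this liver to be free of squamous transcripts. Its Krt13 and Krt4 were above those of the mature livers, and 31 of 38 markers had a negative fold without replicates 1 and 2. Without replicates 1 and 2 of 8 weeks the list's median was -2.38, and without replicate 1 alone it was -6.41. Markers that epithelia of several organs share, Ehf (-2.21) among those of bile ducts and Dmkn (-6.70) among those of mesothelium, fell with them, and were at -0.96 and -3.17 without both replicates. Dmkn had 0.105, 0.179 and 0.0741 CPM at 16 weeks and 29.2, 13.4 and 0.537 CPM at 8 weeks.

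**Figure D4:**
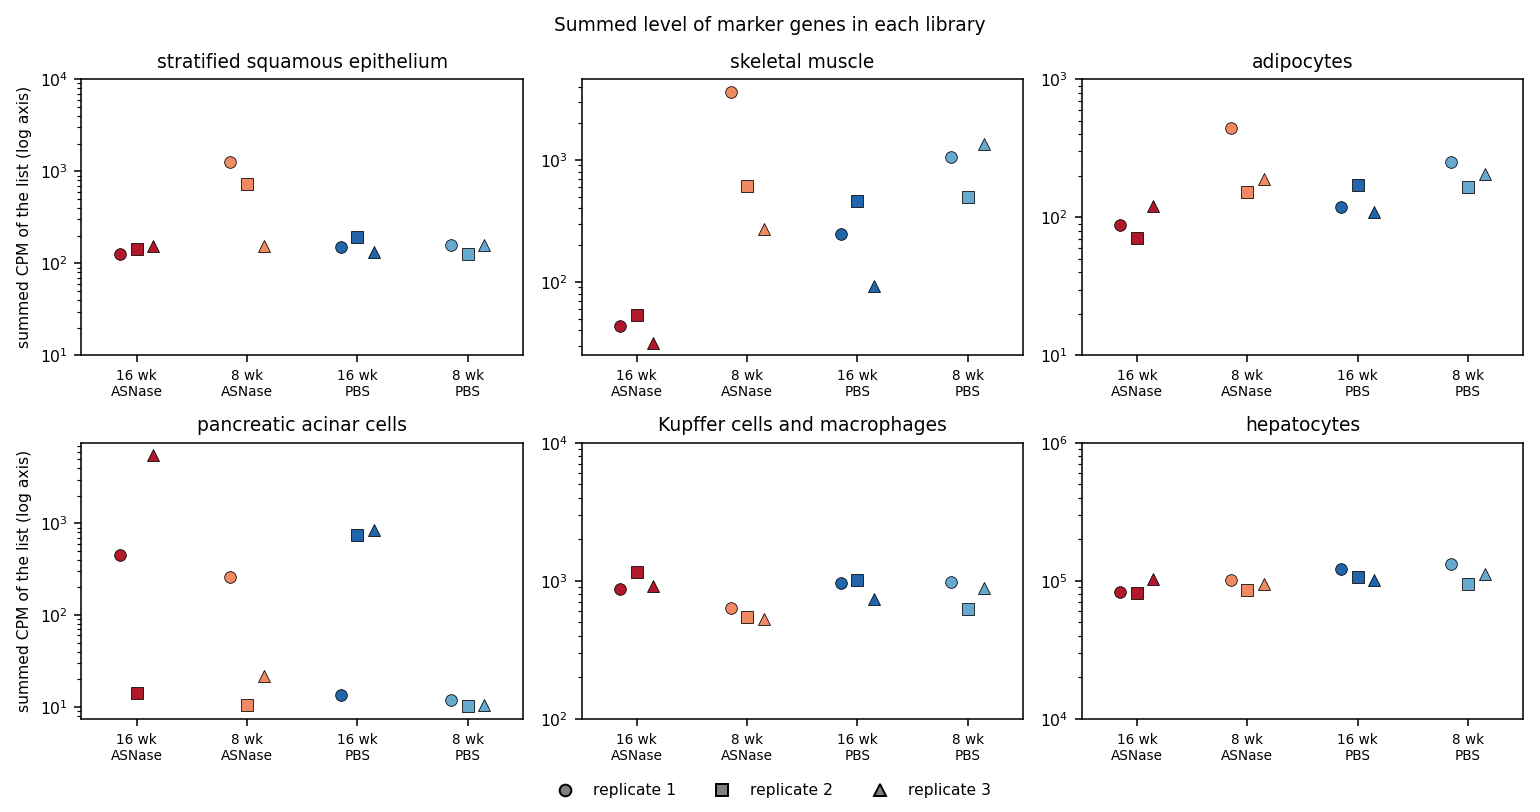
Summed CPM per library (log axes) of marker lists for hepatocytes and for other cell types, in asparaginase and PBS livers of each age; points are livers and shapes are replicates. Squamous markers stand at 1261 CPM in replicate 1 and 720 CPM in replicate 2 of the young asparaginase livers, and at 126 to 193 CPM in the other adult livers.

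Skeletal muscle markers fell almost as a whole, 18 of 19, with a median of -5.85; limma-voom called 9. Myh8, a myosin heavy chain, had 0.0352, 0.149 and 0.111 CPM in the 16-week asparaginase livers, against 137, 36.5 and 13.4 CPM in the 8-week asparaginase livers. All young livers were above all mature ones, with replicate 1 the highest, at a log2 fold change of -8.99 (SE 1.58, adjusted p = 0.013). Ckm, muscle creatine kinase, had 0.211, 1.43 and 0.148 CPM at 16 weeks and 151, 28.9 and 11.9 CPM at 8 weeks, and Mb, myoglobin, had 0.422, 1.79 and 0.445 CPM at 16 weeks and 232, 27.9 and 12.8 CPM at 8 weeks. In PBS livers the muscle list summed to 245, 459 and 93.0 CPM in the 16-week PBS livers and 1051, 493 and 1358 CPM in the 8-week PBS livers, so the mature asparaginase livers were below all others. Sln, sarcolipin, had 0 counts at 16 weeks and was at least 199.7-fold lower. The intermediate filament gene Des, used as a marker of stellate cells and also abundant in muscle, had 3.34, 3.85 and 4.41 CPM at 16 weeks and 128, 28.3 and 12.9 CPM at 8 weeks, a log2 fold change of -3.55. The small heat shock protein Cryab had one of -2.49. Without 8-week replicate 1 the muscle median was -4.94, and without replicates 1 and 2 it was -4.28, so the third young liver alone stood well above the mature ones.

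Pancreatic acinar markers had 0 edgeR calls in 29 genes, with a median of 4.57, 26 at an unadjusted p under 0.05 and higher, and 6 called higher by DESeq2. Amy2a5, pancreatic amylase and one of a cluster of near-copies, had 172, 0.776 and 2163 CPM in the 16-week asparaginase livers, against 81.1, 0.627 and 5.20 CPM in the 8-week asparaginase livers. One mature liver, replicate 3, carried most of it, and the groups overlapped, at a log2 fold change of 5.05 (SE 2.10, adjusted p = 0.229). Cela1, elastase, had 31.9, 11.5 and 279.7 CPM at 16 weeks and 18.9, 8.03 and 6.30 CPM at 8 weeks, at a log2 fold change of 2.89 (SE 0.95, adjusted p = 0.115). Without 16-week replicate 3 the list's median was 1.43, with 0 at an unadjusted p under 0.05, and the log2 fold changes were 1.94 for Amy2a5 and 0.44 for Cela1.

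With all 18 libraries fitted, fewer genes differed by age in PBS livers. There 29 genes were higher (0.179%) and 38 lower (0.234%) at 16 than at 8 weeks, by the same fit. That order of the counts turned when each treatment's 2 groups were fitted alone, with 41 calls in asparaginase livers against 261 in PBS livers, without 8-week asparaginase replicate 1, with 3 against 44, and without replicates 1 and 2, with 7 against 40. Leaving out 16-week PBS replicate 3 left 3 PBS calls, and leaving out 8-week PBS replicate 3 gave 397. The PBS fold had the sign of the asparaginase fold in 225 of the 265 rises and 338 of the 424 falls. The share of all genes with such agreement was not taken. Among the falls were 18 of 19 skeletal muscle markers, a list with a PBS median of -1.81. The part of muscle transcripts in the agreement was not tested. Of the called genes, 8 were higher and 16 lower in both comparisons, and 0 were opposite. Both comparisons come from 1 fit and share its sex terms, but no library. Tmem267, a transmembrane protein gene, was among the shared rises and rose by 1.40 with asparaginase and by 0.99 with PBS. The shared falls included Scd2 at -1.67 in PBS livers, Cyp4a14 at -2.70, Cyp4a10 at -1.92, Cyp4a31 at -1.70, Cd36 at -0.99, Elovl5 at -1.50 and Sparc, a matrix protein, at -0.70. The desaturase Fads2 was not among them, at -0.05 in PBS livers.

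The acute phase and macrophage lists rose less in PBS than in asparaginase livers by their medians, and the ATF4 and CHOP list had the opposite sign. The median over PBS livers was 0.301 for acute phase genes, 0.147 for macrophage markers and -0.177 for ATF4 and CHOP targets, beside 0.00611 over all genes. The test of whether the asparaginase effect itself differed between the ages contrasts the 12 adult livers within the fit to all 18 libraries. It called 0 genes with the libraries of 8 and 16 weeks fitted alone. With all 18 fitted it called 2 genes higher and 0 lower (0.0123% either way), while 1517 genes (9.36%) had an unadjusted p under 0.05. For Cxcl13 the effect was larger at 16 weeks by 3.46 (SE 0.41, adjusted p = 0.0229). PBS livers had 3.24, 4.44 and 2.31 CPM in the 16-week PBS livers and 2.96, 0.861 and 1.82 CPM in the 8-week PBS livers. For Acnat2 it was larger by 1.43 (SE 0.19, adjusted p = 0.0475), and PBS livers had 43.1, 40.5 and 8.79 CPM in the 16-week PBS livers and 27.6, 18.2 and 26.5 CPM in the 8-week PBS livers. For Asns the difference in effect was 2.46 (SE 0.35, adjusted p = 0.0538), for Psat1 3.07 (SE 0.50, adjusted p = 0.106), for Serpina3n 1.29 (SE 0.21, adjusted p = 0.106) and for Marco 2.81 (SE 0.47, adjusted p = 0.11). No member of the acute phase list or of the macrophage list was called in this test, so for these lists a different response to asparaginase is not shown. Of their members 1 each, Serpina3n and Marco, stayed called between asparaginase livers of the 2 ages without 8-week replicate 1. DESeq2 called 25 genes higher and 122 lower in this test, and limma-voom 2 higher and 0 lower.

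**Figure D5:**
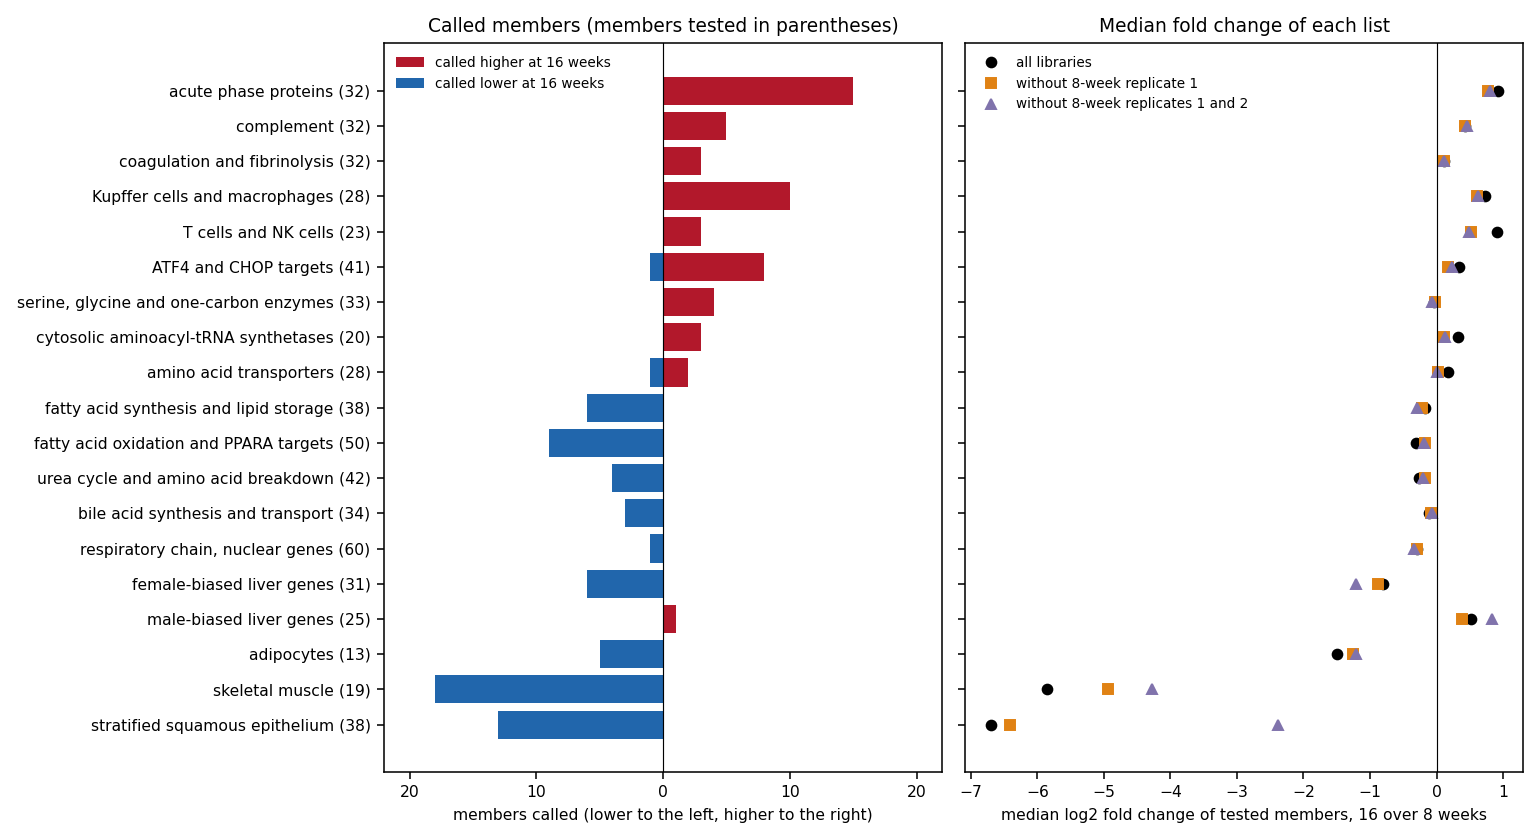
For 19 gene lists in asparaginase livers, 16 over 8 weeks: members called higher (right) and lower (left) in the left panel, and the median log2 fold change of tested members with all libraries and without 8-week replicates in the right panel. Acute phase genes stand at 0.922 with all libraries and 0.776 without replicate 1, and squamous markers at -6.7 with all libraries and -2.38 without replicates 1 and 2.

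Other lists gave few calls, beside 1.63% higher and 2.62% lower over all genes tested. Cytoplasmic ribosomal proteins had 0 calls in 77, with a median of 0.031 and 52 members positive, which turned to -0.128 and 1 positive without 8-week replicate 1; 0 had an unadjusted p under 0.05. Cell cycle genes (0 of 46, 3 unadjusted), cholesterol genes (0 of 26, 0 unadjusted), growth hormone and IGF genes (0 of 18, 6 unadjusted) and metallothioneins and zinc transporters (0 of 13, 2 unadjusted) had no call either. DESeq2 called 0 of the ribosomal, cell cycle and cholesterol genes, 4 of the growth hormone and IGF genes and 1 of the metallothioneins and zinc transporters. ER chaperones had 1 rise in 34, the disulfide isomerase Pdia5 (0.52). Hepatocyte markers had 1 rise in 17, Ambp, the precursor of alpha-1-microglobulin (0.57). Among endothelial markers Fcgr2b, an Fc receptor, rose by 0.49 and Lyve1, a hyaluronan receptor of sinusoids, had a log2 fold change of -1.07, or -0.64 without 8-week replicate 1. Stellate cell and matrix genes had 1 of 27 higher and 2 lower, with a median of -0.188. The falls were Des (-3.55) and Sparc (-0.56). The rise was Timp1, an inhibitor of matrix proteases. It had 1.44, 1.67 and 0.741 CPM at 16 weeks and 0.300, 0.256 and 0.0847 CPM at 8 weeks, without overlap, at a log2 fold change of 2.29 (SE 0.43, adjusted p = 0.016). Erythroid and intestinal markers had 0 calls in 8 and 8, with 0 and 2 at an unadjusted p under 0.05 and 0 and 1 called by DESeq2.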

How the data were processed

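Raw gene counts of 18 mouse liver libraries were taken as the authors deposited them, in 1 table of 37315 genes. The submitters' processing notes name the builds GRCm38 and mm10 and the tools TopHat, TopHat2 2.0.9 and DESeq2 without their roles; for the counter, annotation and strand setting nothing is given in the sources used here. Columns of other series numbered 0. Depth was 24690871 to 46949361 counts per library. Symbols and positions (GRCm38) came from GENCODE M21 by identifier (35449 of 37315 matched).

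Genes were kept by edgeR's filterByExpr (minimum count 10, minimum total 15), scaled by TMM and fitted with edgeR's quasi-likelihood model (edgeR 4.0.16, R 4.3.3) to all 18 libraries, so that the groups share 1 estimate of spread. Its terms were the 6 groups and, at each age, sex (0.5 for males, -0.5 for females), with 9 residual degrees of freedom. 3 of the 2-week libraries, which enter this estimate, hold transcripts of both sexes. Benjamini-Hochberg adjustment ran over 16213 genes, and adjusted p-values in the text are from this fit. They rest on a spread between mice pooled over the 6 groups, which is not that of the 6 compared livers alone. In a two-sided exact permutation test, 3 against 3 mice cannot go below 0.1. The SE is the absolute log2 fold change over the square root of F. Floors (3 counts over a group) and exact 95% intervals of count ratios cover counting error only. The script was tested on simulated data. Alternatives were DESeq2 1.42.0, limma-voom (limma 3.58.1), other scalings, filters and sex terms, and leaving out libraries.

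The comparison and the 52 gene lists (1497 of 1508 entries matched) were chosen with earlier results of these data known. Named genes are the 12 largest folds and 12 smallest p each way among called genes with a mean of at least 1 CPM, called list members, a fixed panel of amino acid stress and serum amyloid genes, and genes called in the test of unequal asparaginase effects; predicted genes were passed over. The rule took 187 genes, not all printed, and 8 more (Krt13, Krt4, Krt5, Amy2a5, Cyp2b9, Angptl8, Csf1r and Clec4f) were chosen after their values were seen. Exons of 32 of these 195 overlap another gene, Psph, Prtn3, Il1b, Ckm, Cryab and Cd247 among them, and without strand the reads cannot be told apart.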

Additional observations from a re-analysis of the deposited data

Results flagged for a closer look

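The asparaginase effect on Cxcl13, asparaginase minus PBS on the log2 scale, was larger at 16 than at 8 weeks by 3.46 (SE 0.41, adjusted p = 0.0229, edgeR). The contrast is of the 12 adult livers, but its p-value comes from the fit to all 18 libraries. With the libraries of 8 and 16 weeks fitted alone, 0 genes were called. Cxcl13 had 17.2, 17.7 and 17.2 CPM in the 16-week asparaginase livers, against 1.06, 0.484 and 0.621 CPM in the 8-week asparaginase livers, and 3.24, 4.44 and 2.31 CPM in the 16-week PBS livers and 2.96, 0.861 and 1.82 CPM in the 8-week PBS livers. Without 8-week asparaginase replicate 1 the difference was 3.15 (adjusted p = 0.337). For Acnat2 the same difference was 1.43 (SE 0.19, adjusted p = 0.0475). It had 10.9, 15.1 and 71.0 CPM in the 16-week asparaginase livers, against 13.4, 12.7 and 12.8 CPM in the 8-week asparaginase livers, and 43.1, 40.5 and 8.79 CPM in the 16-week PBS livers and 27.6, 18.2 and 26.5 CPM in the 8-week PBS livers. The female livers were highest in the 16-week groups, and without 8-week asparaginase replicate 1 the difference was 1.18 (adjusted p = 0.372).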

How the results depend on the processing

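The counts of called genes depend on the processing more than the directions do. With all libraries and edgeR they were 265 higher and 424 lower in asparaginase livers, 67 in PBS livers and 2 for unequal asparaginase effects. DESeq2 gave 399 and 708, 550 and 147, and shared 670 of the 689 calls. Limma-voom gave 266 lower, no sex term 130, 242 and 0, no filter on low counts 664 lower, 171 in PBS livers and 10 unequal effects, and a mean of at least 1 CPM 282 lower. Fitting only the 2 groups compared gave 19 and 22, and 261 in PBS livers. Without both 8-week asparaginase libraries that hold squamous transcripts there were 3 and 4, 40 and 0, and at an adjusted p under 0.01 there were 24 and 9, 3 and 0. The count of unequal effects was 1 with upper-quartile scaling, without the major urinary protein genes and with 1 sex term, and 0 with adult libraries only. Leaving out 1 library at a time gave 3 to 334 higher, 0 to 608 lower, 3 to 397 in PBS livers and 0 to 8 unequal effects, lowest in asparaginase livers without 8-week replicate 1 and lowest in PBS livers without 16-week replicate 3. The cause was not tested. Another scaling moved no named gene across zero.

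Of 195 genes listed, 142 were called. Signs turned only in uncalled ones, and the called ones were chosen from a fit that held the same libraries. With no sex term Fgf21 was -0.37 and Cyp2b9 0.13, and with 1 sex term Fgf21 was -0.10. Without 8-week asparaginase replicates 1 and 2, Fgf21 was -0.40, Ppp1r15a -0.21, Rpl3 -0.0463, Nus1 -0.0208 and Atf5 -0.0139. Over fits that left out 1 library, Fgf21 ran from -0.19 to 1.35, Ppp1r15a from -0.11 to 0.20, Rpl3 from -0.0605 to 0.29, Ddit3 from -0.55 to 0.12, Trib3 from -0.85 to 0.0506, Slc4a1 from -0.69 to 1.37, Sesn2 from -0.20 to 0.46 and Gdf15 from -1.11 to 0.34. No paired analysis was possible because the labels give no replicate numbers, and the order of accession ties no 2 mice together. Depth limits genes with few counts, such as the T cell and squamous markers in the mature livers.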
